A study of Mus musculus with 22 samples.

Results

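The tissue inhibitors of metalloproteinases are encoded in the mouse by Timp1, Timp2, Timp3 and Timp4, and these 4 genes were taken by symbol from a table of 23359 genes. The table gives FPKM, a fragment count normalised for transcript length and for the size of the library, in 22 libraries of poly-A RNA from hearts of male wild-type C57BL/6 mice at postnatal weeks 10 to 14. There were 19 cardiac fibroblast libraries: sedentary (n = 3), 3 days after a sham operation (n = 2), 3 days (n = 3) and 10 days (n = 3) after TAC, 5 days after MI (n = 2), and after swimming for 4 days (n = 3) or 10 days (n = 3). A further 3 libraries were cardiomyocytes of sedentary mice. The labels abbreviate both operations. Here TAC is taken to mean transverse aortic constriction, a surgical pressure load on the left ventricle, and MI myocardial infarction. No sham operation is labelled for 10 days of TAC or for MI, so these were set against sedentary fibroblasts. The labels do not say how the cells were isolated or whether each library is a separate animal, so the p-values speak only to the spread among these samples, which may be technical.

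TIMPs are secreted proteins that block the catalytic site of matrix metalloproteinases (MMPs), the enzymes that cut collagens and other matrix proteins, and the balance between inhibitor and enzyme helps set how much matrix a heart builds up or loses after injury. The family members differ in reach. Timp1 is a soluble inhibitor that is readily induced by cytokines and growth factors and also binds the tetraspanin Cd63. Timp2 is made more steadily and, besides inhibiting MMPs, takes part with the membrane enzyme Mmp14 in activating the gelatinase Mmp2. Timp3 stays bound to the matrix and also inhibits sheddases such as Adam17 and aggrecanases such as Adamts5. Timp4 has a narrower tissue range and is known for its expression in heart.

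Cell identity was checked on marker genes. The summed FPKM of 12 fibroblast markers was 1202 to 4075 in the fibroblast libraries and 132 to 322 in the cardiomyocyte libraries, and that of 12 cardiomyocyte markers was 51.3 to 748 and 13168 to 17044. Levels within a library are relative, since the deposited table gives no read counts. Transcript length divided the fibroblast libraries. Slopes are in log2 units per doubling of length and describe FPKM relative to each gene's mean over the fibroblast libraries. Such slopes compare the libraries with each other and do not show a length trend within any single library. On this relative scale FPKM rose with length in the 7 sedentary, sham and MI libraries (0.214 to 0.338). It fell with length in the 12 TAC and swim libraries (-0.377 to -0.0109). TAC or swim libraries set against sedentary or sham libraries therefore cross this division, while MI against sedentary and swim against TAC do not. The longest GENCODE transcript is 883 bases for Timp1, 3709 for Timp2, 4722 for Timp3 and 5496 for Timp4, so each change is also given after a trend on length and GC content was removed from every library. Only 4 library titles carry a date (1 sedentary library of each cell type and both MI libraries), so no batch term could be fitted.

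All but Timp2 lie inside synapsin genes, on the opposite strand. In mm10 (GRCm38, GENCODE), Timp1 spans chromosome X, 20870166 to 20874735, on the plus strand within Syn1. Timp3 spans chromosome 10, 86300372 to 86349506, on the plus strand within Syn3. Timp4 spans chromosome 6, 115241892 to 115252205, on the minus strand within Syn2. Timp2 spans chromosome 11, 118301069 to 118355740, on the minus strand, outside the synapsin genes. Overlap with genes other than the synapsins was not looked up. The libraries are labelled as stranded, but whether counting used the strand is not given in the sources used here, so reads from the 2 strands of these loci cannot be told apart with certainty. The synapsin genes were listed at 0.504 FPKM or less in every library.

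The promoters of the first 3 genes are shown because after TAC Timp1 moved one way and Timp2 and Timp3 the other. Each window runs from 250 bases before to 50 after the RefSeq start (GRCm38.p6): chrX:20869916-20870215 on the plus strand for Timp1, chr11:118355362-118355661 on the minus strand for Timp2 and chr10:86300162-86300461 on the plus strand for Timp3. Capitals mark GC boxes (GGGCGG, or CCGCCC where the match is on the other strand) and TGAGTAA, a variant of the AP-1 element that is known from Timp1.
Timp1: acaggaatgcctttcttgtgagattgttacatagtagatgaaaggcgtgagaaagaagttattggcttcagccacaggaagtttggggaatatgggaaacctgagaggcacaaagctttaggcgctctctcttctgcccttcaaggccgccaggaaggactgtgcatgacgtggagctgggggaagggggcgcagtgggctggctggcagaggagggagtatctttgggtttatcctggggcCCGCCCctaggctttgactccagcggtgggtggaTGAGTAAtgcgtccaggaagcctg
Timp2: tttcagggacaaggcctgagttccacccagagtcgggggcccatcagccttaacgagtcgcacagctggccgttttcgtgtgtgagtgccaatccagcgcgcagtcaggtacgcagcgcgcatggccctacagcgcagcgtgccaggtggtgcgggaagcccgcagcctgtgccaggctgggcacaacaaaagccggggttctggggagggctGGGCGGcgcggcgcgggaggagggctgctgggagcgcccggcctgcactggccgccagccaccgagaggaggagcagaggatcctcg
Timp3: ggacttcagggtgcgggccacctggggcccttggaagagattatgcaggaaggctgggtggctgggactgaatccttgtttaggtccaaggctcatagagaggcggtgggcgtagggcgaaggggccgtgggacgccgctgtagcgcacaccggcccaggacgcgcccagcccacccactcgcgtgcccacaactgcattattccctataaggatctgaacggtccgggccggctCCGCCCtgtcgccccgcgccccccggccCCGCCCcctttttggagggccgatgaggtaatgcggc

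On both strands, TGAGTAA matched once in the Timp1 window, 27 bases after the start, and in none of the other 3; of 32851 mouse promoter windows of the same length 2.68% held it. This variant was added to the search after the windows had been read. GC boxes matched once in Timp1 (8 bases before the start), once in Timp2 (37 before) and 2 times in Timp3 (15 before and 14 after), and did not match in Timp4; 35.7% of all windows held one. The ETS core AGGAAG matched 3 times in Timp1, once each in Timp3 and Timp4 and not in Timp2 (35.4% of windows). Matches to the consensus AP-1 letters TGANTCA (7.81% of windows), the STAT letters TTCNNNGAA (8.30%) and TATAAA (13.6%) were found in none of the 4 windows. No matches to different motifs overlapped.

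In sedentary fibroblasts Timp2 was the most abundant member, Timp3 the next, Timp1 lower and Timp4 the least. FPKM is scaled to length, but whether a length trend remains within these libraries was not measured. The order between genes therefore holds for this scale only. The levels averaged 88.7 ± 12.2 FPKM for Timp2, 50.5 ± 9.15 for Timp3, 13.6 ± 6.48 for Timp1 and 2.92 ± 1.01 for Timp4 (SD, n = 3). Cardiomyocytes had another order, with Timp4 highest at 10.9 ± 3.42 FPKM, then Timp3 (9.26 ± 3.11), Timp2 (6.36 ± 1.83) and Timp1 (0.635 ± 0.176, n = 3 each). Of the summed FPKM of the 4 genes, Timp4 made up 39.9% ± 5.55 in cardiomyocytes and 1.91% ± 0.763 in sedentary fibroblasts. The plot of all 4 genes by library shows both this split between cell types and the opposite directions of Timp1 and of Timp2 and Timp3 after TAC.

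**Figure D1:**
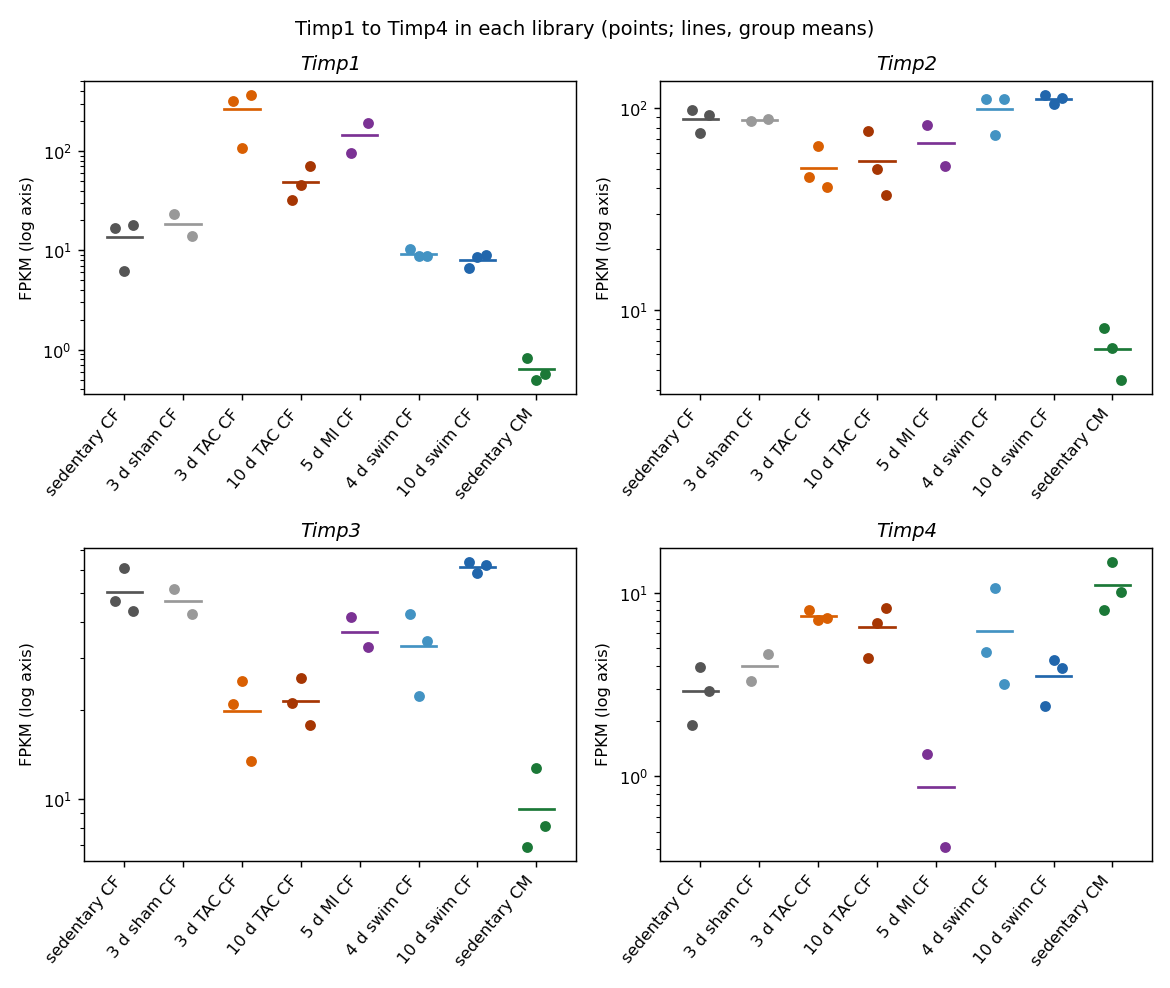
FPKM of Timp1, Timp2, Timp3 and Timp4 (log axes, one panel each) in every library of the 7 fibroblast groups (CF) and of cardiomyocytes (CM); points are libraries and lines are group means. Timp1 is highest after TAC and MI, Timp2 and Timp3 are lowest among fibroblasts after TAC, and Timp4 is lowest after MI.

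How many members changed depended on the comparison, and each count is given beside the share of all tested genes that were called (limma on log2(FPKM + 1), Benjamini-Hochberg adjusted p under 0.05). Against sham, 1 of 4 members rose and 2 fell at 3 days of TAC; of 9425 genes 57.1% were called, 31.3% higher and 25.8% lower. Against sedentary fibroblasts 2 rose and 2 fell at 10 days of TAC (65.7% of genes called, 38.8% higher and 27.0% lower). MI gave 1 rise and 0 falls (11.3%, 8.93% higher and 2.34% lower). For swimming there were 1 rise and 1 fall at 4 days (64.5%, 38.2% higher and 26.3% lower) and 0 calls by limma at 10 days (43.6%, 30.0% higher and 13.6% lower), where no member had an unadjusted p under 0.05. With the length and GC trend removed, 46.3%, 55.6%, 15.3%, 53.4% and 33.9% of 8897 genes were called in these 5 comparisons, and 4, 3, 1, 2 and 2 members.

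Between treatments, 3 members were called in 10 day swim against 10 day TAC (24.2% of genes called), 2 in 4 day swim against 3 day TAC (8.86%), 1 in 10 day against 3 day TAC (6.6%) and 3 in MI against 10 day TAC (57.3%). All 4 were called in cardiomyocytes against sedentary fibroblasts (77.3% of 10371 genes). Sham against sedentary (0.0212%), 10 day against 4 day swim (0.318%) and the difference between the TAC and swim time courses (6.16%) gave 0 members by limma. The unadjusted p of limma was under 0.05 for Timp3 in the swim comparison (0.00157) and for Timp1 and Timp3 in the time courses (0.0044 and 0.0383), and for no member in sham against sedentary.

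Timp1, the inducible member, showed the widest range of the family among fibroblasts. Its level was 16.7, 6.20 and 18.1 FPKM in the sedentary libraries and 23.2 and 13.9 FPKM after sham. It reached 321, 107 and 363 FPKM after 3 days of TAC. All 3 TAC libraries lay above both sham libraries, and the means differed 14.2-fold. Against sham Timp1 rose by 3.62 log2 units (SE 0.502, adjusted p = 2.43e-05), the 7th largest rise among the 9425 genes, and by 2.73 (adjusted p = 0.000329) with the length and GC trend removed.

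By 10 days of TAC Timp1 was lower than at 3 days and remained above sedentary. The libraries held 32.0, 45.1 and 69.9 FPKM, none of which overlapped with the sedentary or 3 day TAC libraries. The rise against sedentary was 1.82 log2 units (SE 0.449, adjusted p = 0.00217). It was 0.97 and no longer passed with the length and GC trend removed (adjusted p = 0.0653). The fall from 3 to 10 days of TAC, which stays on one side of the length division, was -2.29 (SE 0.449, adjusted p = 0.00563), or -2.24 (adjusted p = 0.00497) with the trend removed. Macrophage and monocyte markers (12 genes) summed to 855 to 1400 FPKM in these TAC libraries and 567 to 795 in sedentary ones, and 10 pericyte and smooth muscle markers to 63.8 to 81.2 and 41.7 to 52.2; their part in the difference was not tested. Members of both lists went both ways. Of the macrophage markers C1qa (206 to 330 FPKM against 53.5 to 73.5), C1qb and C1qc were higher, whereas Ptprc was lower (0.377 to 1.36 against 3.58 to 8.59) and Cd68 overlapped. Of the pericyte and smooth muscle markers Des (35.5 to 36.3 against 12.7 to 18.8), Pdgfrb and Notch3 were higher, Abcc9 and Myh11 lower, and Rgs5 overlapped. In these bulk samples fewer cells of a type and less RNA per cell cannot be told apart. Marker sums and levels throughout are deposited FPKM with no length and GC trend removed. TAC and swim libraries lie across the length division from sedentary, sham and MI ones. The part of transcript length in the marker differences was not tested.

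After MI Timp1 was at 95.1 and 191 FPKM, and both libraries lay above all sedentary libraries. The rise was 3.34 log2 units (SE 0.502, adjusted p = 0.000278), the 16th largest of all genes, with means 10.5-fold apart, and it was 3.34 (adjusted p = 0.00018) with the trend removed. Here too the macrophage sum, 1046 to 1054 FPKM, and the pericyte sum, 63.5 to 74.0, lay above the sedentary ranges, and their part in the rise was not tested. Lyz2 was above its sedentary range here (450 to 456 FPKM against 246 to 283), as was Des (29.9 to 31.4), while Ptprc and Rgs5 overlapped. In 3 day TAC libraries, where the Timp1 difference was 3.62, the macrophage sum of 978 to 1274 lay within the sham range of 870 to 1906. The pericyte sum of 41.4 to 50.1 overlapped with the sham range of 38.4 to 47.4. Single members still differed from sham, in both directions. C1qa (201 to 291 against 74.5 to 191 FPKM) and Des (28.7 to 33.1 against 17.8 to 21.2) were higher. Ptprc (0.863 to 1.27 against 8.93 to 10.7), Lyz2, Mrc1 and Rgs5 (3.37 to 6.30 against 11.1 to 13.4) were lower. Their part in the 3 day difference was not tested.

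Swimming left Timp1 among its lowest fibroblast levels. It was at 10.3, 8.77 and 8.82 FPKM after 4 days and 6.69, 8.58 and 8.89 FPKM after 10 days. These values lay inside the sedentary range, which is set by 1 low library (6.20 FPKM). The differences from sedentary were -0.39 log2 units (adjusted p = 0.463) and -0.58 (adjusted p = 0.314). Both passed with the length and GC trend removed, at -1.38 (adjusted p = 0.0133) and -1.22 (adjusted p = 0.0383). Fibroblast and macrophage marker sums also differed between swim and sedentary libraries, with the values given below for Timp2 and Timp3. Their part in the Timp1 values was not tested.

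Timp1 differed between swim and TAC libraries when the treatments were compared directly. It was lower after 4 days of swimming than after 3 days of TAC (-4.50 log2 units, SE 0.449, adjusted p = 8.26e-05), ranking first among the falls of all 9425 genes, with means 28.4-fold apart. At 10 days the difference was -2.40 (SE 0.449, adjusted p = 0.00158). All swim libraries lay below all TAC libraries in both comparisons. TAC is an operation and swimming is not, so the operation and the pressure load cannot be told apart in these comparisons. The early comparison also sets 4 days against 3 days. A test of the difference between the 2 time courses (the TAC change from 3 to 10 days minus the swim change from 4 to 10 days) gave -2.10 for Timp1 (adjusted p = 0.0587), which passed with the trend removed (-2.39, adjusted p = 0.035) and without 3 day TAC replicate 2 (-2.66, adjusted p = 0.0105). MI exceeded 10 day TAC by 1.51 (SE 0.502, adjusted p = 0.0175), or 2.36 with the trend removed; leaving out MI replicate 2 ended this call (1.014, adjusted p = 0.2), as did leaving out 10 day TAC replicate 1 (1.25, adjusted p = 0.0629).

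Timp3, the matrix-bound inhibitor of Adam17 and aggrecanases, moved opposite to Timp1 after TAC. It was at 47.0, 60.8 and 43.5 FPKM in sedentary libraries and 51.5 and 42.3 after sham. In the 3 day TAC libraries it was at 21, 25.1 and 13.4 FPKM, and after 10 days at 21.1, 25.7 and 17.8. Every TAC library lay below every sham and sedentary library. Timp3 fell by 1.24 log2 units against sham at 3 days (SE 0.275, adjusted p = 0.00109) and by 1.19 against sedentary at 10 days (SE 0.246, adjusted p = 0.000471). The falls were -0.74 (adjusted p = 0.0157) and -0.71 (adjusted p = 0.00892) with the length and GC trend removed. The summed FPKM of the 12 fibroblast markers was lower in the same libraries, at 1301 to 2279 against 2700 to 3162 after sham, and 1202 to 1981 against 2212 to 2849 in sedentary fibroblasts; its part in the fall was not tested. Its members went both ways: Gsn and Dcn, the most abundant of them, were lower (124 to 598 against 1033 to 1362 FPKM for Gsn at 10 days), while Col1a1 was higher (129 to 253 against 16.3 to 29.6), as were Col1a2 and Mfap5.

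Timp2, the member that also helps activate Mmp2, was lower after TAC by a smaller step. Sedentary libraries held 98.3, 75.0 and 92.9 FPKM and sham libraries 86.2 and 88.4. At 3 days of TAC the levels were 45.6, 64.7 and 40.7 FPKM, all below the sham libraries. After 10 days they were 76.7, 49.8 and 37.2 FPKM, and the highest of these overlapped with the sedentary range. The falls were -0.81 log2 units (SE 0.289, adjusted p = 0.024) and -0.74 (SE 0.259, adjusted p = 0.018), and -0.76 and -0.73 with the trend removed. Single libraries decided these calls: the 3 day fall missed the threshold without either sham library (adjusted p = 0.0848 and 0.0891), TAC replicate 1 (0.0644) or TAC replicate 3 (0.088), and the 10 day fall when sedentary replicate 1 (0.0649) or the 3rd TAC library (-0.51, adjusted p = 0.113) was left out.

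After MI neither gene passed the test. Timp2 was at 82.6 and 51.7 FPKM (-0.43 log2 units, SE 0.289, adjusted p = 0.405) and Timp3 at 41.3 and 32.7 FPKM (-0.43, SE 0.275, adjusted p = 0.368). Both MI libraries lay below all sedentary libraries for Timp3, and 1 of 2 did for Timp2. Timp3 was higher after MI than after 10 days of TAC by 0.76 (adjusted p = 0.0259). That call did not survive removal of the trend (0.27, adjusted p = 0.366), of 10 day TAC replicate 3 (0.64, adjusted p = 0.0899) or of MI replicate 1 (0.59, adjusted p = 0.177). Timp2 differed there by 0.32 (adjusted p = 0.354).

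The highest group means of Timp2 and Timp3 were found in 10 day swim fibroblasts. Timp2 was at 112, 73.5 and 111 FPKM after 4 days and 116, 105 and 113 after 10 days of swimming, so that all 3 of the 10 day libraries lay above the sedentary range. Neither difference from sedentary passed the test (0.14, adjusted p = 0.655, and 0.33, adjusted p = 0.317). Timp3 was at 42.3, 22.4 and 34.3 FPKM after 4 days, all below the sedentary libraries, and at 63.7, 58.3 and 62.1 after 10 days. The 4 day difference of -0.63 log2 units (SE 0.246, adjusted p = 0.0327) was -0.10 with the trend removed (adjusted p = 0.695), and it also missed the threshold when 4 day swim replicate 2 was left out (-0.38, adjusted p = 0.192), or sedentary replicate 2 (-0.49, 0.119) or 1 (-0.67, 0.0534). At 10 days the difference was 0.29 (adjusted p = 0.355), and 0.62 (adjusted p = 0.0312) with the trend removed. All 3 of the 10 day libraries exceeded all 4 day libraries, and the difference between them was 0.92 (adjusted p = 0.126). After 4 and 10 days of swimming fibroblast markers summed to 2896 to 4075 and 3453 to 3913 FPKM. In sedentary libraries they summed to 2212 to 2849. Macrophage markers summed to 1494 to 1917 and 1018 to 1290 FPKM, against 567 to 795. Members of both lists went both ways at both times: Gsn and C1qa were higher than in sedentary libraries, Ddr2 and Ptprc lower. The part of these differences in the Timp values was not tested.

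Compared with 10 day TAC, 10 day swim fibroblasts had 1.08 log2 units more Timp2 (SE 0.259, adjusted p = 0.00745) and 1.48 more Timp3 (SE 0.246, adjusted p = 0.000537). No libraries overlapped for either gene. The Timp3 call passed under every alternative run, while that of Timp2 was lost without 10 day TAC replicate 3 (0.84, adjusted p = 0.0537). At the early times 4 day swim exceeded 3 day TAC by 0.96 for Timp2 (adjusted p = 0.0266) and 0.70 for Timp3 (adjusted p = 0.0901), the latter passing with the trend removed (0.76, adjusted p = 0.0289) and without 4 day swim replicate 2 (0.95, adjusted p = 0.0317). Marker sums also differed between the 10 day groups: fibroblast markers summed to 3453 to 3913 FPKM after swimming and 1202 to 1981 after TAC, and endothelial markers to 188 to 358 and 435 to 1041. At the early times macrophage markers summed to 1494 to 1917 FPKM in swim and 978 to 1274 in TAC libraries. Fibroblast markers summed there to 2896 to 4075 FPKM in swim and 1301 to 2279 in TAC libraries. Of these early fibroblast markers Gsn was higher after swimming (1456 to 2143 against 400 to 967 FPKM) and Col1a1 lower (23.6 to 47.7 against 86.8 to 132). Fibroblast markers went both ways at 10 days: Gsn was higher after swimming (1846 to 2149 against 124 to 598 FPKM) and Col1a1 lower (18.9 to 25.1 against 129 to 253). Of the endothelial markers Cldn5 was lower after swimming (11.2 to 18.5 against 51.6 to 115), while Tek and Vwf overlapped. The part of these differences in the Timp values was not tested. The early Timp2 call was lost without 3 day TAC replicate 1 or 3 or 4 day swim replicate 1 or 3 (adjusted p = 0.0861 to 0.117).

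**Figure D2:**
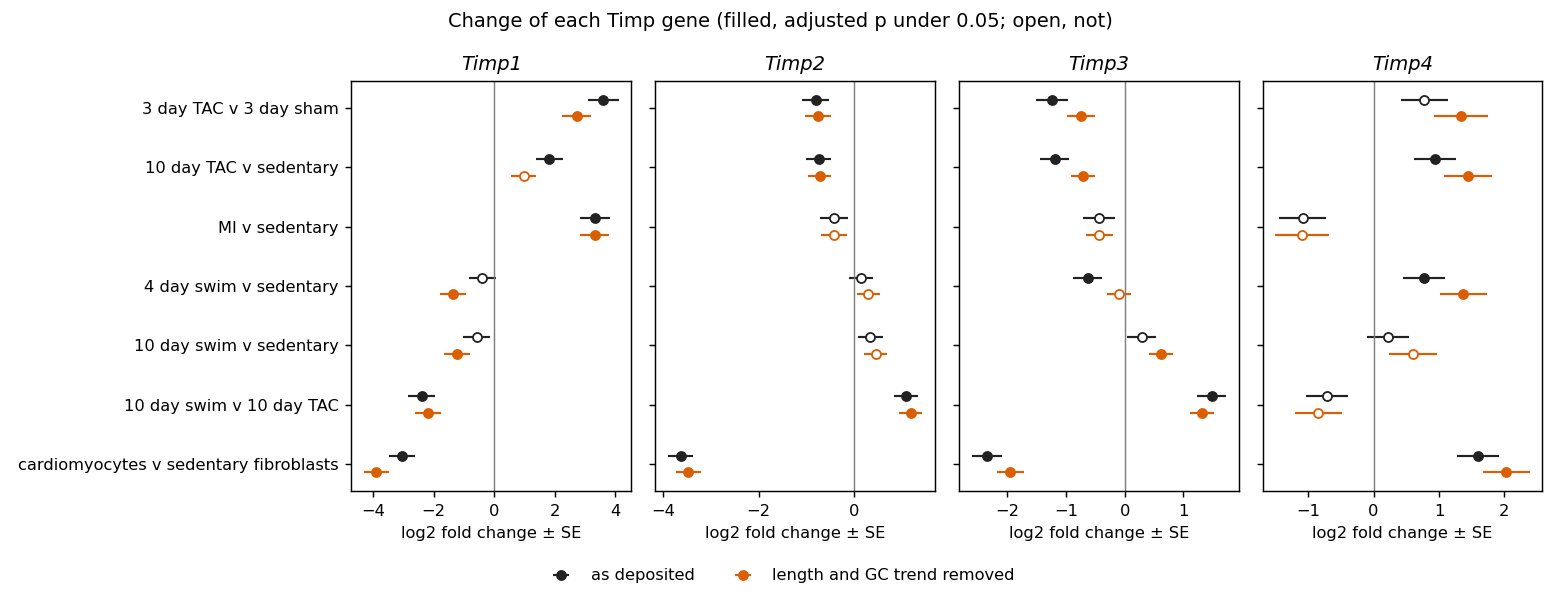
Log2 fold change of each Timp gene in 7 comparisons, with SE as bars, from the deposited FPKM (black) and after removal of the trend on transcript length and GC content (orange); filled points passed an adjusted p of 0.05. The Timp1 values for MI and for swim against TAC hardly move with the correction, whereas its value at 10 days of TAC falls from 1.82 to 0.97.

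Timp4, the member known from heart, was the least abundant in sedentary fibroblasts and rose at 10 days of TAC. It was at 1.91, 3.93 and 2.93 FPKM in sedentary libraries and 3.30 and 4.65 after sham. At 3 days of TAC it was at 8.09, 7.08 and 7.23 FPKM, and after 10 days at 4.40, 6.87 and 8.28. Each TAC library lay above each library of its control group. The 10 day rise was 0.93 log2 units (SE 0.321, adjusted p = 0.0169) and the 3 day value was 0.78 (SE 0.358, adjusted p = 0.0728). Corrected for the length and GC trend they were 1.45 (adjusted p = 0.00337) and 1.34 (adjusted p = 0.0141), so both passed. Leaving out sedentary replicate 1 (0.74, adjusted p = 0.0843) or the 3rd TAC library (0.76, adjusted p = 0.0781) ended the 10 day call.

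MI libraries had the lowest Timp4 levels of all groups, at 1.33 and 0.415 FPKM, both below every other library. The difference from sedentary was -1.08 log2 units (SE 0.358, adjusted p = 0.0614). With a pseudocount of 0.1 in place of 1 it was -1.76 and passed (adjusted p = 0.0214). MI and 10 day TAC differed by -2.01 (SE 0.358, adjusted p = 0.000217), a call that passed under every alternative run, with means 7.49-fold apart.

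Swim libraries held 4.75, 10.6 and 3.18 FPKM of Timp4 after 4 days and 2.42, 4.31 and 3.87 after 10 days. One 4 day library, replicate 2, stood well above the other two, and it also had the highest endothelial marker sum of its group (382, in a range of 162 to 382). That sum followed Fabp4, which adipocytes also express: without it replicate 2 had 68.4 FPKM, beside 51.6 and 68.5 in replicates 1 and 3. The 4 day difference of 0.77 (SE 0.321, adjusted p = 0.0442) missed the threshold without that library, replicate 2 (0.35, adjusted p = 0.301). It also missed it when sedentary replicate 1 (0.57, 0.178), sedentary replicate 3 (0.79, 0.077) or 4 day swim replicate 1 (0.86, 0.0522) was left out. It was 1.37 (adjusted p = 0.00499) with the trend removed. The 10 day difference was 0.22 (adjusted p = 0.613), and 10 day swim against 10 day TAC gave -0.72 (adjusted p = 0.106), with no overlap of libraries.

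Cardiomyocyte and endothelial transcripts were compared with Timp4, since cardiomyocytes had the most of it. The summed FPKM of 12 cardiomyocyte markers was 188 to 212 after 3 days of TAC and 175 to 197 after sham, and 175 to 748 after 10 days of TAC against 51.3 to 308 in sedentary libraries. The sum of 12 endothelial markers was 435 to 1041 after 10 days of TAC, 141 to 259 in sedentary libraries and 99.3 to 154 after MI. In the 3 day TAC libraries it was 181 to 255, above the sham range of 99.3 to 180 and within the sedentary range. The part of these cells in the Timp4 values was not tested. Fabp4, which adipocytes also express, gave the largest part of the endothelial sum (281 to 730 FPKM after 10 days of TAC), and without it, a choice made after the values were seen, the sum was 151 to 311 at 10 days of TAC against 78.5 to 121 in sedentary libraries, and 43.7 to 82.3 at 3 days against 39.9 to 73.0 after sham. Other endothelial markers went both ways at 10 days of TAC. Cldn5 (51.6 to 115 FPKM against 11.4 to 30.6 in sedentary libraries), Aqp1, Egfl7 and Tie1 were higher. Tek was lower (1.33 to 3.42 against 3.63 to 5.38), and Pecam1, Cdh5, Kdr, Emcn, Flt1 and Vwf overlapped. The 8 adipocyte markers summed to 2.42 FPKM or less in all fibroblast libraries.

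**Figure D3:**
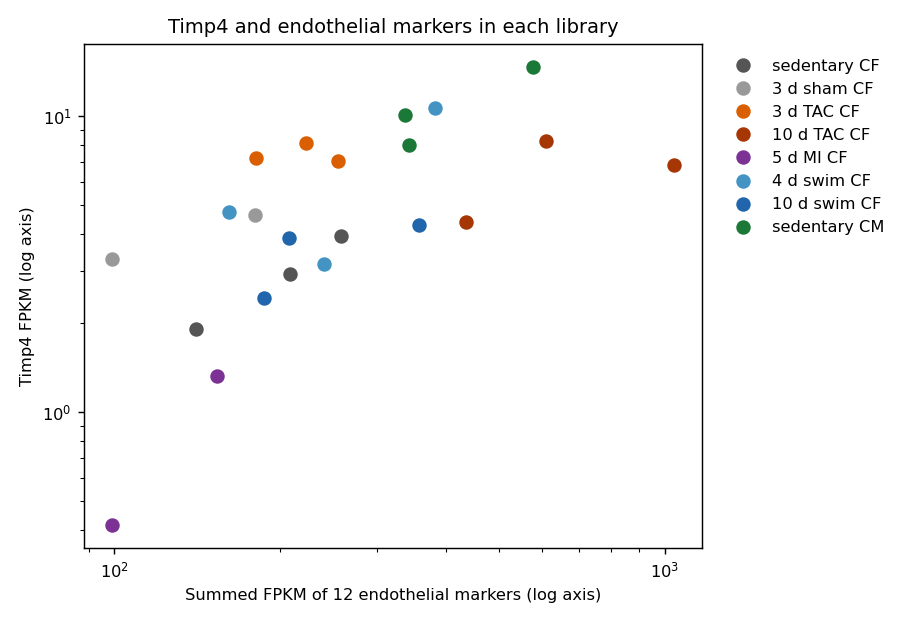
Timp4 FPKM against the summed FPKM of 12 endothelial markers (both axes log), 1 point per library, coloured by group. Among fibroblasts the 10 day TAC libraries have the highest marker sums, 435 to 1041, while the 3 day TAC libraries reach 7.08 to 8.09 FPKM of Timp4 at marker sums of 181 to 255.

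The make-up of the family's transcripts differed between groups. Of the summed FPKM of the 4 genes in each library, Timp1 made up 8.63% ± 3.85 (SD, n = 3) in sedentary fibroblasts and, after sham, 11.7% ± 3.43 (n = 2). It made up 73.0% ± 18.0 (n = 3) after 3 days of TAC, 37.2% ± 14.4 (n = 3) after 10 days and 56.2% ± 18.4 (n = 2) after MI. The lowest share in these 3 groups, 23.8%, was above the highest in the control and swim groups, 14.1%. After 4 and 10 days of swimming Timp1 made up 6.42% ± 1.05 and 4.39% ± 0.734 (n = 3 each), and Timp2 66.8% ± 3.51 and 60.4% ± 0.985. These shares use the deposited FPKM with no trend removed, and the TAC and swim groups lie across the length division from sedentary and sham. The Timp1 differences given earlier were smaller once the trend was removed, at 2.73 in place of 3.62 for 3 days of TAC and, for 10 days, 0.97 (adjusted p = 0.0653) in place of 1.82. The sum itself was 156 ± 9.03 FPKM in sedentary, 341 ± 120 after 3 days and 132 ± 3.63 after 10 days of TAC, 248 ± 39.2 after MI and 184 ± 7.33 after 10 days of swimming. In cardiomyocytes, at 27.2 ± 6.28 FPKM, the sum lay below every fibroblast library (lowest, 115).

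**Figure D4:**
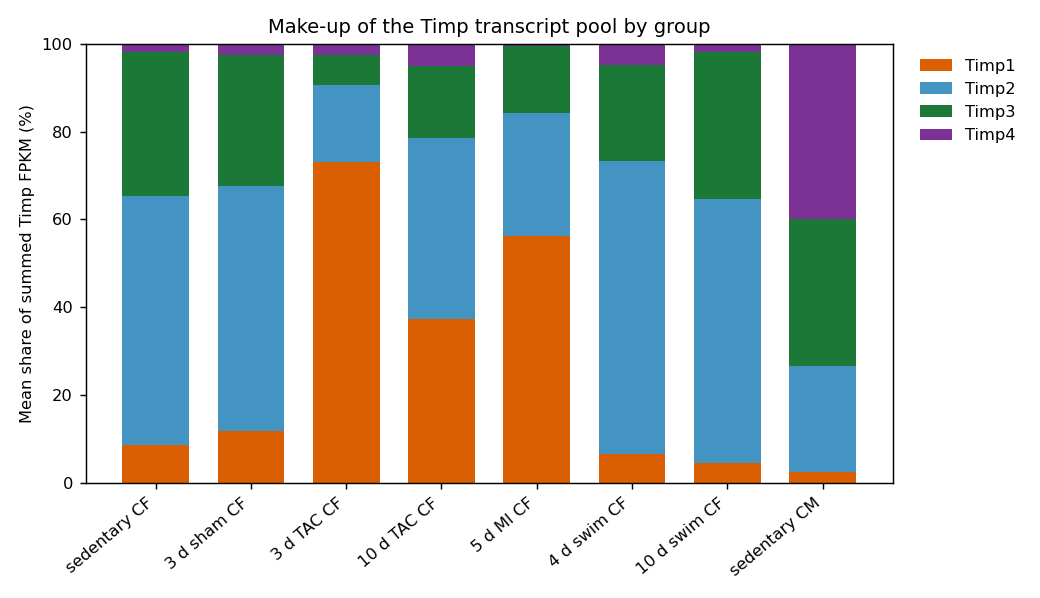
Mean share of each Timp gene in the summed Timp FPKM of a library (stacked bars, percent) for the 7 fibroblast groups (CF) and cardiomyocytes (CM). Timp1 makes up 73.0% after 3 days of TAC and 4.39% after 10 days of swimming, and Timp4 makes up 39.9% in cardiomyocytes.

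In cardiomyocytes Timp1 was listed at 0.833, 0.497 and 0.576 FPKM, Timp2 at 8.14, 6.45 and 4.47, and Timp3 at 6.90, 12.8 and 8.09. All were below every fibroblast library. Against sedentary fibroblasts the differences were -3.04 log2 units for Timp1 (adjusted p = 2.71e-06), -3.63 for Timp2 (adjusted p = 1.37e-10) and -2.35 for Timp3 (adjusted p = 6.81e-08). Timp4, at 8.00, 14.7 and 10.1 FPKM, was higher by 1.60 (SE 0.321, adjusted p = 0.000157), or 3.74-fold between means. These 4 calls passed under every alternative run. Fibroblast transcripts were also found in the cardiomyocyte libraries (marker sum 132 to 322, against 2212 to 2849 in sedentary fibroblasts), as were endothelial transcripts (337 to 576, against 141 to 259, but 70.3 to 118 against 78.5 to 121 without Fabp4). The pericyte and smooth muscle sum was 278 to 358, against 41.7 to 52.2, of which 208 to 296 was Des, a gene that cardiomyocytes also express. The part of these transcripts in the cardiomyocyte levels of the 4 genes was not tested.

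Ordered by mean level, neighbouring groups often overlapped. For Timp1 the order was 3 day TAC, MI, 10 day TAC, sham, sedentary, 4 day swim, 10 day swim and cardiomyocytes, with gaps free of overlap between MI and 10 day TAC, between 10 day TAC and sham, and below 10 day swim. For Timp2 (10 day swim, 4 day swim, sedentary, sham, MI, 10 day TAC, 3 day TAC, cardiomyocytes) and Timp3 (10 day swim, sedentary, sham, MI, 4 day swim, 10 day TAC, 3 day TAC, cardiomyocytes), such gaps lay only below sham and above cardiomyocytes. For Timp4 (cardiomyocytes, 3 day TAC, 10 day TAC, 4 day swim, sham, 10 day swim, sedentary, MI) the only gap without overlap lay above MI.

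The enzymes that TIMPs inhibit did not move as one group. Among the 23 MMP genes listed, 11 were expressed enough to be tested. At 3 days of TAC 3 rose and 2 fell, after 10 days 2 rose and 6 fell, after MI 3 rose and 1 fell, after 4 days of swimming 3 rose and 3 fell, and after 10 days 1 rose and 3 fell. The list's median log2 change was -0.13, -0.42, 0.15, 0.04 and -0.01 in these comparisons, beside 0.05, 0.12, 0.10, 0.13 and 0.14 for all genes tested, of which 57.1%, 65.7%, 11.3%, 64.5% and 43.6% were called. With the length and GC trend removed the counts were 4 and 3, 2 and 4, 3 and 1, 1 and 2, and 1 and 2. Without a filter on low values the counts were 5 falls at 3 days of TAC, 6 rises and 0 falls after MI, 5 and 5 at 4 days and 5 falls at 10 days of swimming. The 10 day TAC falls numbered 3 without sedentary replicate 3 or 10 day TAC replicate 2 or 3, and the 3 day TAC falls 1 without sham replicate 2 or TAC replicate 2. The fall after MI was not called without sedentary replicate 1 or 3 or either MI library, and the 10 day swim rises were 2 without sedentary replicate 3.

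Mmp2, the gelatinase that Timp2 binds, had the highest mean of the MMPs in each fibroblast group and had group means in fibroblasts from 44.0 ± 12.6 FPKM after 3 days of TAC to 68.2 ± 22.1 after MI. Its membrane activator Mmp14 was high after MI and low after swimming: 15.7 ± 4.84 FPKM in sedentary fibroblasts, 53.3 ± 12.2 after MI (rise of 1.73 log2 units, adjusted p = 0.00108), 5.44 ± 2.0 after 4 days of swimming (-1.38, adjusted p = 0.000337) and 5.79 ± 1.08 after 10 days (-1.26, adjusted p = 0.00157). The MI call missed the threshold without MI replicate 2 (1.5, adjusted p = 0.0502). Mmp14 was lower after 10 days of swimming than after 10 days of TAC (-1.24, adjusted p = 0.00433).

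The stromelysin genes Mmp3 and Mmp10 fell from 3 to 10 days of TAC, while the collagenase gene Mmp13 was below its controls at both times, with overlapping TAC libraries (-0.44 between the times, adjusted p = 0.661). Mmp13 was at 20.5 ± 11.7 FPKM in sedentary fibroblasts and fell to 1.07 ± 0.839 after 10 days of TAC (-3.24, adjusted p = 6.26e-05). Relative to sham it was also lower at 3 days of TAC (-2.55, adjusted p = 0.00147) and after 4 and 10 days of swimming than in sedentary fibroblasts (-2.18, adjusted p = 0.00158, and -1.98, adjusted p = 0.00588). After MI Mmp13 had a value of -1.92 (adjusted p = 0.0407), which missed the threshold when sedentary replicate 1 or 3 or either MI library was left out (adjusted p = 0.0901 to 0.242), without a filter on low values (0.0533) and with a pseudocount of 0.1 (0.0766). Mmp3, which can activate other MMPs, was at 12.7 ± 3.50 FPKM after 3 days of TAC and 4.64 ± 0.150 after sham (1.24, adjusted p = 0.00162). By 10 days it was at 0.788 ± 0.269 FPKM, lower than at 3 days (-2.91, adjusted p = 4.39e-06) and than in sedentary fibroblasts (-1.02, or -1.62 with a pseudocount of 0.1, adjusted p = 0.00237 with a pseudocount of 1). Mmp10, a related stromelysin, fell by 1.84 between the TAC times (adjusted p = 1.93e-05), or by 3.50 with a pseudocount of 0.1.

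Mmp23, a membrane MMP, rose against its control after 3 and 10 days of TAC (1.53 and 1.88) and 4 and 10 days of swimming (1.95 and 1.52), at adjusted p of 2.07e-05 or less. With the length and GC trend removed these rises were 0.73 to 1.12, all passing. Mmp19 rose after MI, from 1.66 ± 0.406 to 6.87 ± 0.44 FPKM (1.57, adjusted p = 2.3e-05).

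**Figure D5:**
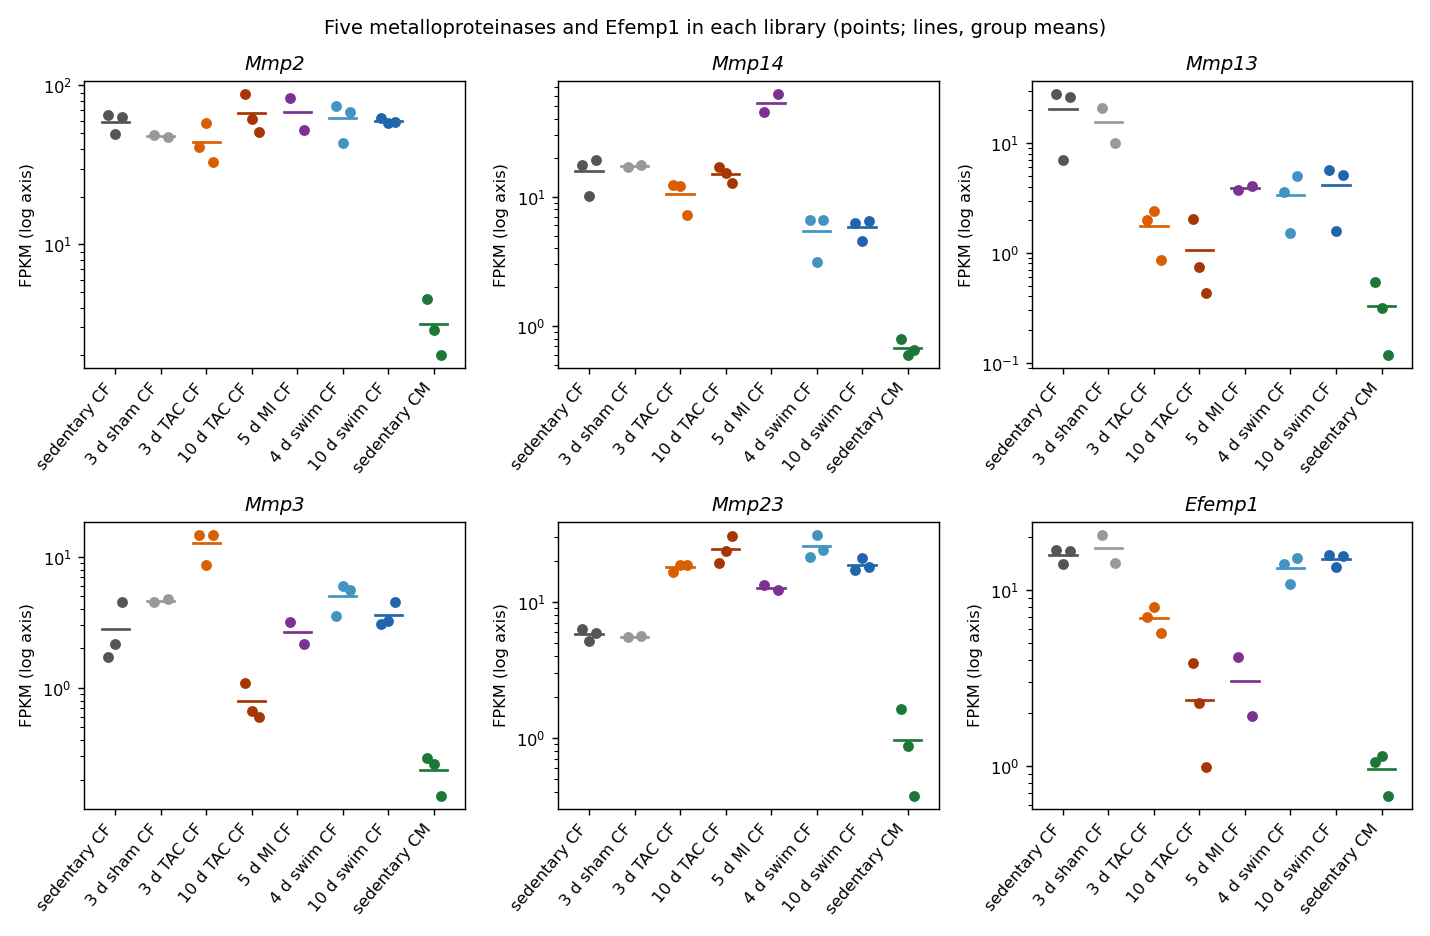
FPKM (log axes) of Mmp2, Mmp14, Mmp13, Mmp3, Mmp23 and Efemp1 in every library; points are libraries and lines are group means. Mmp14 peaks after MI at 53.3 FPKM on average, Mmp3 after 3 days of TAC at 12.7, and Efemp1 is lowest among fibroblasts after 10 days of TAC at 2.37.

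Among the ADAM and ADAMTS proteases, which Timp3 in particular inhibits, 15 of 20 genes could be tested. MI gave 7 rises and 0 falls (4 rises when either MI library was left out), beside 8.93% and 2.34% of all genes. Adam8, a metalloprotease of activated leukocytes and other cells, rose by 2.64 log2 units there (adjusted p = 3.05e-06), from 0.478 ± 0.133 to 8.77 ± 4.6 FPKM. Adam12 rose by 1.97 (adjusted p = 2.62e-08; 4.02 with a pseudocount of 0.1), from 0.114 ± 0.0364 to 3.49 ± 1.46 FPKM. The list's medians in the 5 comparisons, in the order used for the MMPs, were -0.25, -0.10, 0.58, -0.52 and -0.31. In the TAC and swim comparisons, where 43.6% to 65.7% of all genes were called, the counts depended on the length correction: 3 rises and 6 falls at 3 days of TAC became 6 and 2, 4 and 5 at 10 days of TAC became 8 and 2, 1 and 10 at 4 days of swimming became 3 and 4, and 0 and 6 at 10 days became 2 and 1. The 3 rises at 3 days of TAC were 1 without sham replicate 1 or TAC replicate 1, and the 5 falls at 10 days were 3 without sedentary replicate 1 or TAC replicate 3. Of the enzymes that Timp3 is known to inhibit, Adam17 had values of -0.86 and -0.87 at 3 and 10 days of TAC (adjusted p = 0.00708 and 0.00254), and -0.34 and -0.33 with the trend removed (adjusted p = 0.172 and 0.123). Adamts5 had -1.27 and -1.58 (adjusted p = 0.000888 and 3.62e-05), and -0.23 (adjusted p = 0.451) and -0.62 (adjusted p = 0.0246). Adamts1, which cleaves proteoglycans, fell by 1.63 after 3 days of TAC (adjusted p = 0.00435).

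TIMP binding partners and other MMP regulators numbered 7 tested of 8. At 3 days of TAC 2 rose and 4 fell, after 10 days 2 rose and 3 fell, after MI 1 rose and 2 fell, after 4 days of swimming 2 rose and 3 fell, and after 10 days 3 rose and 1 fell, beside 57.1%, 65.7%, 11.3%, 64.5% and 43.6% of all genes called. The list's medians were -0.71, -0.34, -0.17, -0.24 and -0.08 log2 units, beside 0.05, 0.12, 0.10, 0.13 and 0.14 for all genes. The rise after MI was not called without sedentary replicate 1 or 2 or either MI library, the MI falls were 1 without MI replicate 2, and the 10 day swim falls were 2 without sedentary replicate 3. With the length and GC trend removed the rises and falls were 1 and 3, 2 and 2, 1 and 2, 3 and 2, and 3 and 0. Efemp1, the matrix protein that binds Timp3, was at 15.9 ± 1.60 FPKM in sedentary fibroblasts and fell after 10 days of TAC to 2.37 ± 1.45 (-2.41, adjusted p = 2.6e-06) and after MI to 3.04 ± 1.59 (-2.12, adjusted p = 0.000148). At 3 days of TAC it was lower than after sham (-1.21, adjusted p = 0.00314), but not past the threshold without sham replicate 1 (-0.95, adjusted p = 0.0547). After 10 days of swimming it was at 15 ± 1.25 FPKM, above 10 day TAC by 2.34 (adjusted p = 2.27e-05). Reck, a membrane-anchored MMP inhibitor, was likewise higher after 10 days of swimming than of TAC (0.91, adjusted p = 0.00238). After MI it was lower than in sedentary fibroblasts (-0.83, adjusted p = 0.0132), though not past the threshold when MI replicate 2 was left out (-0.59, adjusted p = 0.319).

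Cd63, the surface partner of Timp1, rose by 1.05 after 3 days of TAC (adjusted p = 0.000317), 0.81 after 10 days (adjusted p = 0.000851), 1.25 after 4 days of swimming (adjusted p = 1.66e-05) and 0.92 after 10 days (adjusted p = 0.000735), and passed in each with the trend removed. Lrp1, the endocytic receptor that clears MMP-TIMP complexes, fell from 26.2 ± 8.24 FPKM in sedentary fibroblasts to 10.9 ± 3.58 after 10 days of TAC (-1.19, adjusted p = 0.00301) and 10.7 ± 4.81 after 4 days of swimming (-1.25, adjusted p = 0.00193). With the trend removed these were -0.76 (adjusted p = 0.0224) and -0.47 (adjusted p = 0.143). At 3 days of TAC the fall against sham was -1.39 (adjusted p = 0.00264), or -0.75 (adjusted p = 0.0476).

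In cardiomyocytes 9 of 11 MMPs were lower than in sedentary fibroblasts and 1 was higher, in a comparison in which 77.3% of all genes were called, 38.6% lower and 38.7% higher. The list's median was -1.23 log2 units, beside -0.05 for all genes. Mmp2 was lower (-3.89 log2 units, adjusted p = 5.76e-11), and the gene that was higher was the membrane enzyme Mmp15 (1.79, or 2.84 with a pseudocount of 0.1, adjusted p = 1.78e-12 with a pseudocount of 1). Lrp1 was lower (-3.79, adjusted p = 5.91e-10). Bsg, the cell-surface inducer of MMPs, was at 390 ± 48.1 FPKM in cardiomyocytes and 26.9 ± 4.96 in sedentary fibroblasts (3.81, adjusted p = 5.74e-14).

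Of 11 genes for cytokines that induce Timp1 and for their receptors 10 were tested. After 3 days of TAC 1 rose and 3 fell (31.3% and 25.8% of all genes), after 10 days 2 rose and 5 fell (38.8% and 27.0%), and after MI 1 rose and 0 fell (8.93% and 2.34%). The list's medians were -0.44, -1.13 and 0.07 log2 units, beside 0.05, 0.12 and 0.10 for all genes. With the trend removed the counts were 2 and 2, 2 and 6, and 3 and 0. Tgfb3, a ligand of the TGF-beta family, was the member that rose after MI (1.81, adjusted p = 2.4e-05), and it rose by 1.80 after 10 days of TAC (adjusted p = 2.27e-06), from 2.34 ± 0.246 to 10.8 ± 2.82 FPKM. Il6, interleukin 6, was at 181 ± 110 FPKM in sedentary fibroblasts and fell to 12.2 ± 3.49 after 10 days of TAC (-3.53, adjusted p = 0.00202). Il6st, the receptor chain shared by the interleukin 6 family, fell at 3 days of TAC (-1.85, adjusted p = 0.000345), and the value was -1.05 (adjusted p = 0.0129) with the trend removed. After 4 days of swimming 2 of these genes rose and 5 fell (38.2% and 26.3% of all genes), and after 10 days 1 rose and 1 fell (30.0% and 13.6%); corrected for length and GC the counts were 1 and 6, and 1 and 0.

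Likeness to each member was measured as Pearson's r of log2(FPKM + 1) over the 19 fibroblast libraries among 8806 genes. These values are a description; the libraries share the group differences and the length trend. Timp1 was most like Slc35c1 (0.94), Fstl3 (0.94), Nt5dc2 (0.93), Sec61a2 (0.91) and Gjb5 (0.91). Fstl3, a secreted binder of activins, averaged 1.26 FPKM in sedentary fibroblasts, 4.73 after 3 days of TAC and 3.28 after MI. Timp2 was most like Arsk (0.95, but 0.70 with the length and GC trend removed), Sord (0.92), Medag (0.92), Glt8d2 (0.92) and Pcsk6 (0.91). Pcsk6, a proprotein convertase, averaged 44.6 FPKM in sedentary fibroblasts, 17.7 after 10 days of TAC and 51.5 after 10 days of swimming. Timp3 was most like Nr1d2 (0.93), Angptl1 (0.92), Lepr (0.90), Rnd3 (0.89) and Dpp4 (0.89). With the length and GC trend removed Angptl1 fell to 0.73, Lepr to 0.63, Rnd3 to 0.78 and Dpp4 to 0.52. Nr1d2, a circadian repressor, stayed at 0.92.

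Timp4 was most like Thrsp (0.89, but 0.22 with the trend removed), Ly6c2 (0.87), Ly6c1 (0.86), Rbp7 (0.84, but 0.60 with the trend removed) and Ly6f (0.84). The 3 Ly6 genes are close copies of each other, so how their reads were shared out is uncertain. Between members r was 0.80 for Timp2 with Timp3, -0.81 for Timp1 with Timp2 and -0.70 for Timp1 with Timp3, and 0.83, -0.76 and -0.73 with the trend removed. Timp4 had r of 0.06 with Timp1, -0.37 with Timp2 and -0.54 with Timp3, and -0.13, -0.29 and -0.33 with the trend removed.

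The authors' deposited table of comparisons, with fibroblast controls pooled under one name, gives Timp1 log2 fold changes of 4.24 at 3 days of TAC, 1.84 at 10 days (q = 0.000429) and 3.26 after MI (q = 4.4e-09). Which libraries these controls hold is not given in the sources used here. For Timp3 the authors' deposited table gives -1.11 at 3 days (q = 0.0316) and -0.93 at 10 days (q = 0.0968), and for Timp2 -0.65 (q = 0.250) and -0.50 (q = 0.456). In the authors' deposited table Timp4 is 1.39 and 1.24 higher at 3 and 10 days of TAC (q = 0.00271 and 0.0115) and -1.75 after MI (q = 0.00178). For 10 day swim against 10 day TAC the authors' deposited table marks all 4 genes as significant: Timp1 at -2.67, Timp2 at 0.97, Timp3 at 1.39 and Timp4 at -1.02 (q of 0.0169 or less). Among the comparisons given here, the calls from limma and those of this pooled-control table differ for Timp2 after TAC, Timp3 at 10 days of TAC, Timp3 and Timp4 at 4 days of swimming (q = 0.609 and 0.0863 in the authors' deposited table), Timp3 in MI against 10 day TAC (0.56, q = 0.272), and Timp4 at 3 days of TAC, after MI and in 10 day swim against 10 day TAC. A second of the authors' deposited tables, with separate controls, marks Timp4 at 4 days of swimming as significant against the swim controls (1.21, q = 0.0324). Against its TAC controls that gene is not marked (0.70, q = 0.324). Timp1 at 10 days of swimming is marked as lower against the TAC controls (-1.22, q = 0.042) but not the swim controls (-0.67, q = 0.185). Timp4 at 10 days of TAC is marked against the swim controls (1.40, q = 0.00191) but not the TAC controls (0.89, q = 0.118). At 3 days of TAC against the TAC controls, Timp1 (3.87), Timp3 (-1.04, q = 0.0293) and Timp4 (1.05, q = 0.0484) are marked. Timp2 is not (-0.74, q = 0.150).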

How the data were processed

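Stranded poly-A libraries were sequenced, per the labels' protocols, and the authors deposited FPKM for each gene in each library, from Cufflinks 2.0.2 on mm10 per the submitters' processing notes. No source used here names the aligner or annotation. The authors' deposited comparisons hold log2 fold changes, p-values and q-values. A further 44 columns of confidence bounds were left out.

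FPKM values were tested as log2(FPKM + 1) with limma 3.58.1 in R 4.3.3 (trend and robust settings). Genes needed 1 FPKM or more in 2 or more libraries, which left 9425 over the 19 fibroblast libraries and 10371 over all 22, used for cardiomyocytes. The added 1 understates folds of low genes. P-values were Benjamini-Hochberg adjusted over all tested genes and called under 0.05. The length and GC alternative removed splines with 4 degrees of freedom from each library (94.4% of tested genes had a length). Absolute depth is unknown; relative depth, estimated from the smallest FPKM steps, spanned up to 4.11-fold. The fit was tested on simulated data. Alternatives were a pseudocount of 0.1, no filter, median scaling, limma without trend and robust settings, the replicate block and each library left out.

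The members and lists were chosen with earlier results of these data known. Up to 2 called genes of largest fold per list, direction and comparison could be named, and Mmp2, Mmp3, Mmp9, Mmp14, Adam17, Adamts5, Lrp1, Cd63, Reck and the synapsins whatever their values. The 5 genes of highest Pearson r were named for each member.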

Additional observations from a re-analysis of the deposited data

Results flagged for a closer look

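Opposite effects of 2 conditions against the same sedentary libraries, with a direct comparison that passed the test, drew attention to 4 results. For Timp1, 10 day TAC was 1.82 log2 units above sedentary and 10 day swim was at -0.58 (not called), and swim against TAC gave -2.40. For Timp2 the values were -0.74 and 0.33 (not called), with a direct difference of 1.08. For Timp3 they were -1.19 and 0.29 (not called), with a direct difference of 1.48. For Timp4, MI was at -1.08 (not called) and 10 day TAC at 0.93, and MI against 10 day TAC gave -2.01. Each pair shares its sedentary libraries, so the opposite signs are not independent of each other, while the direct comparisons do not use them. No group had the 4 or more libraries needed to look for single outlying libraries.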

How the results depend on the processing

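Of 52 results for the 4 genes 23 were called, and 13 of these kept call and direction under every alternative run. Of 588 alternative values 530 kept direction and side of the threshold and 17 reversed, all in results that were not called. The causes were not tested.

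With the length and GC trend removed, Timp1 lost its call at 10 days of TAC (0.97), and Timp3 at 4 days of swimming (-0.10) and in MI against 10 day TAC (0.27). Calls appeared for Timp4 at 3 days of TAC (1.34), Timp1 at 4 and 10 days of swimming (-1.38 and -1.22), Timp3 at 10 days of swimming (0.62) and in 4 day swim against 3 day TAC (0.76), and Timp1 in the difference between time courses (-2.39). Timp2 in sham against sedentary (0.029) and Timp1 in 10 day against 4 day swim (0.16) reversed. A pseudocount of 0.1 made Timp4 after MI pass (-1.76) and Timp4 at 4 days of swimming miss the threshold (0.93). Without a filter on low values, Timp3 (-0.63) and Timp4 (0.77) at 4 days of swimming and Timp2 in 4 day swim against 3 day TAC (0.96) missed it, and with median scaling Timp4 at 4 days of swimming did (0.72).

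Leaving out each library in turn gave Timp2 -1.003 to -0.67 at 3 days of TAC and -1.02 to -0.51 at 10 days, and Timp4 0.74 to 1.16 at 10 days. At 4 days of swimming Timp3 ranged from -0.83 to -0.38 and Timp4 from 0.35 to 1.09. In sham against sedentary Timp2 ranged from -0.13 to 0.064 and Timp3 from -0.24 to 0.044. For 10 day swim against 10 day TAC Timp2 ranged from 0.84 to 1.35. For 4 day swim against 3 day TAC Timp2 ranged from 0.83 to 1.16 and Timp3 from 0.46 to 0.95. From 3 to 10 days of TAC the ranges were -0.19 to 0.32 for Timp2, -0.10 to 0.32 for Timp3 and -0.38 to 0.015 for Timp4. From 4 to 10 days of swimming Timp2 ranged from -0.0065 to 0.29. In MI against 10 day TAC the ranges were 1.014 to 2.01 for Timp1, -0.014 to 0.65 for Timp2 and 0.59 to 0.92 for Timp3. In the difference between time courses they were -2.66 to -1.78 for Timp1, -0.39 to 0.13 for Timp2 and -0.068 to 0.67 for Timp4.

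The replicate block could be fitted for MI and for cardiomyocytes, and it changed no call of the 4 genes. It is balanced within each group, so it can change the SE and p-value but not the fold changes. Those of Timp1 to Timp4 were therefore bound to stay at 3.34, -0.43, -0.43 and -1.08 after MI. In cardiomyocytes they likewise stayed at -3.04, -3.63, -2.35 and 1.60. Same-numbered cardiomyocyte and fibroblast libraries correlated at 0.233, 0.314 and 0.065 in their deviations from group means. Differently numbered ones correlated at -0.264 to 0.0812, below 2 of those 3 values. For MI and sedentary fibroblast libraries 1 and 2 the values went the other way, at -0.334 for same-numbered and 0.334 for differently numbered pairs. With 2 libraries on each side these sizes had to be equal. Deviations within a group cancel out, so same-numbered and differently numbered values are not independent in either check. The labels do not state pairs and pairing was not settled, so the numbers were used only in this alternative. Absolute depth is unknown, so no counting error can be given for the levels near or under 1 FPKM, which are those of Timp4 after MI and Timp1 in cardiomyocytes.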
